A study of Mus musculus with 4 samples.

Results

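Collagen chain genes encode the polypeptides from which all collagens are assembled, and every feature of the deposited table named Col, a number, a and a number was taken as a member, whatever its level. This gave 44 members of 31055 features. Single-cell RNA-seq with a 3′ kit (10x Genomics) was performed on viable, DAPI-negative cells sorted from microdissected lung tumors of 4 female mice, 2 Restored and 2 Non-Restored. Mice of both groups carried KrasLSL-G12D, the Lkb1XTR/XTR gene trap and a Rosa26LSL-tdTomato reporter, all switched by Cre, and the Restored mice also carried FLPo-ERT2 at Rosa26, through which tamoxifen turns Lkb1 on again. All 4 were given intratracheal Lenti-Cre, tumors grew for 16 weeks, and tamoxifen in 4 mg doses was given to both groups for the last 2 weeks. Cells were released with enzymes that included collagenase IV, and any effect of that step on which cells were recovered was not tested.

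The deposited matrix joins the cells of all 4 mice under column numbers, with no map from a cell to a mouse, and it was therefore treated as 1 pooled sample. Restored and Non-Restored tumors are not compared here, barcodes shared between libraries could not be counted, and there is no replicate error. Levels are given as unique molecular identifiers (UMIs) of a gene per 1000000 UMIs of the cells concerned (CPM), with a 95% exact Poisson interval in brackets that covers counting error only. Each transcript is counted once at its 3′ end, so values were not divided by transcript length.

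Each collagen molecule is a trimer of chains. Fibrillar collagens (types I, III and V) form the tensile fibres of the interstitium, type IV chains form the network of basement membranes, type VI chains form beaded filaments near cell surfaces, and the fibril-associated collagens (FACITs) decorate fibre surfaces. In the lung, fibroblasts are the textbook source of the fibres, whereas the type IV network lies between the capillary endothelium and the alveolar epithelium, where its Col4a3, Col4a4 and Col4a5 chains replace the ubiquitous Col4a1 and Col4a2 chains in part.

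Several type IV genes lie head to head in the genome. Col4a1 (mm10 chromosome 8, 11198423 to 11312826, minus strand) and Col4a2 (chromosome 8, 11312805 to 11449287, plus strand) start 21 bases apart on opposite strands and their first exons overlap, Col4a3 and Col4a4 start 72 bases apart on chromosome 1, and Col4a5 and Col4a6 start 1309 bases apart on chromosome X. Promoter windows of 300 bases, from 250 before to 50 after the start, were found in RefSeq (GRCm38.p6, the mm10 sequence) for 35 of the 44 members. The windows of Col4a1 and Col4a2 are shown because these neighbours had the highest levels outside the stroma; capitals mark the 78 bases that both windows hold, one window being read on the minus strand and the other on the plus strand.
Col4a1, chr8:11312777-11313076, minus strand: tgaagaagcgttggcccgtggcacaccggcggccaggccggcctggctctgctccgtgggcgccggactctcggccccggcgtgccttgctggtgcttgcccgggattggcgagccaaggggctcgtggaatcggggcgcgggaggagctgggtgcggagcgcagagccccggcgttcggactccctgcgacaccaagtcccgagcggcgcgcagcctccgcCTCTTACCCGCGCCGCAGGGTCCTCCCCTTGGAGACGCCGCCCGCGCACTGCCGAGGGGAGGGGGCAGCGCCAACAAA
Col4a2, chr8:11312555-11312854, plus strand: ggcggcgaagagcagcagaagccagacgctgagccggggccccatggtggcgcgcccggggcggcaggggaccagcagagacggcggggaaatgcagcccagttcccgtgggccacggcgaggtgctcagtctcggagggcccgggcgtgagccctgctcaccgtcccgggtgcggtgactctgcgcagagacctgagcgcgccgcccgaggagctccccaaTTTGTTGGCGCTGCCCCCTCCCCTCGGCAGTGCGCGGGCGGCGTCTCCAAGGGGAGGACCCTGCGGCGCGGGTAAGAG

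Col1a2 and Col3a1, which encode chains of the main interstitial fibres, are shown because they led the stromal cells. Capitals mark CCAAT or its reverse complement ATTGG in the window of Col1a2 and TATAAA in that of Col3a1.
Col1a2, chr6:4505368-4505667, plus strand: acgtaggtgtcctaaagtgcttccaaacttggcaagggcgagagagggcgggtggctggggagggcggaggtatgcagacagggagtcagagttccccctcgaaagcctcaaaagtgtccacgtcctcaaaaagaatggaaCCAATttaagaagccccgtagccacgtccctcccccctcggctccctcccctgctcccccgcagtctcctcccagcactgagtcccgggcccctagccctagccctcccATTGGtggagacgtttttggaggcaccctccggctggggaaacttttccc
Col3a1, chr1:45311288-45311587, plus strand: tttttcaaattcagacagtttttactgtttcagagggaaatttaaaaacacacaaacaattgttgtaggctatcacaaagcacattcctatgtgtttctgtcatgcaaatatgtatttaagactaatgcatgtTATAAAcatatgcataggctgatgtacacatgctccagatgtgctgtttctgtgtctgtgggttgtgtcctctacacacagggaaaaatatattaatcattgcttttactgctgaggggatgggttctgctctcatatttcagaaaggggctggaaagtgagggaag

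The Col1a2 window held CCAAT or ATTGG at 2 places and no TATAAA, and the Col3a1 window held TATAAA once and no CCAAT. Searched on both strands, CCAAT occurred in 13 of the 38 windows of members (34.2%) and in 37.4% of the 32851 windows of all genes, and TATAAA in 5 of 38 (13.2%) and 13.6%. GGGCGG, or CCGCCC on the other strand, occurred in 23 of 38 member windows (60.5%) and in 35.7% of all windows. These are matches of letters and were not tested as binding sites.

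To ask which cells of these tumors held collagen transcripts, each cell was placed in a class by markers that include no collagen. A cell needed UMIs of at least 2 genes of a class list and of at most 1 gene of every other list, which placed 108 cells in the stromal, 1710 in the endothelial, 831 in the epithelial and 14490 in the immune class of 19488 cells kept. Each of 4 check lists of genes outside the gate summed highest in its own class, though not every gene separated the classes. Mgp alone gave 29900 CPM in stromal cells, and Sparcl1 was at 2123 CPM in stromal and 1910 CPM in endothelial cells. Srgn, of the immune check list, was at 568 CPM in endothelial and 1300 CPM in immune cells. All 6 further stromal markers were detected in the stromal class and summed to 40882 CPM there, against 116 to 2679 CPM elsewhere, and the epithelial check list summed to 103221 CPM in the epithelial class. All 10 epithelial gate genes were at 0 UMIs in the stromal class. The gate itself admits at most 1 gene of another list, so this is no separate check. A further 1235 cells met more than one list, 961 of them the epithelial and immune lists, and are described apart. Median depth was 3498 UMIs per cell in the stromal, 1836 in the endothelial, 3842 in the epithelial and 1874 in the immune class.

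Stromal cells had the highest collagen level, and endothelial cells the largest part of all collagen transcripts. Summed over the 44 members, the level was 11358 CPM (11016 to 11708) in stromal, 3002 CPM (2944 to 3061) in endothelial, 617 CPM (591 to 644) in epithelial and 28.9 CPM (27.2 to 30.6) in immune cells. The step from stromal to endothelial cells was 1.92 on the log2 scale (1.87 to 1.97), that from endothelial to epithelial cells 2.28 (2.21 to 2.35) and that from epithelial to immune cells 4.42 (4.31 to 4.52). Stromal cells were 0.554% of the cells kept and held 20.9% of the 19963 collagen UMIs, whereas endothelial cells were 8.77% and held 51.2%. At least 1 collagen UMI was seen in 98.1% of stromal, 90.6% of endothelial, 80.0% of epithelial and 6.04% of immune cells, without adjustment for depth.

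The make-up of the collagen transcripts differed between the classes. Fibrillar chains were 75.3% of the collagen UMIs of stromal cells and 1.34% of those of endothelial cells, while the 6 type IV chains were 10.0% in stromal, 95.2% in endothelial and 84.3% in epithelial cells. In immune cells the FACITs were the largest family, at 50.6%, nearly all of it Col14a1.

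A member was said to peak in a class if its CPM there rested on at least 10 UMIs and was at least 4 times that of every other class. For this rule a class under 3 UMIs was set at 3 UMIs. Of 26 members with 10 UMIs in any class, 14 peaked in stromal cells (53.8%), against 2.79% of the 15288 features tested in the same way. Col4a3 and Col4a4 peaked in epithelial cells, where the share of all features was 1.81%. The stromal level of each rested on 2 UMIs, which the rule set at 3. On the 2 UMIs counted, epithelial Col4a3 was 8.04-fold over the next class (2.19 to 67.0), a larger fold than the rule used. The Col4a3 peak was lost under a stricter gate, an 8-fold rule and removal of TdTomato-positive cells outside the epithelium. That removal took out 5589 cells with a TdTomato UMI and left 9999 immune, 1335 endothelial and 80 stromal cells. The study's methods left such cells out of later analyses, whereas they stay in the reported values here. Among the stromal peaks, Col4a5 was lost under 5 alternatives and Col18a1 under 2. No member peaked in endothelial or immune cells, where 1.98% and 2.64% of all features did, and 10 had no peak. Of the other 18 members, Col9a1, Col22a1 and Col28a1 had no UMI and 15 had fewer than 10 UMIs in every class. Among them were Col2a1, Col10a1 and Col11a1, known from cartilage, with 3, 1 and 2 UMIs in all cells kept, while Col11a2, another such chain, had 49 and is given with the immune cells.

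**Figure D1:**
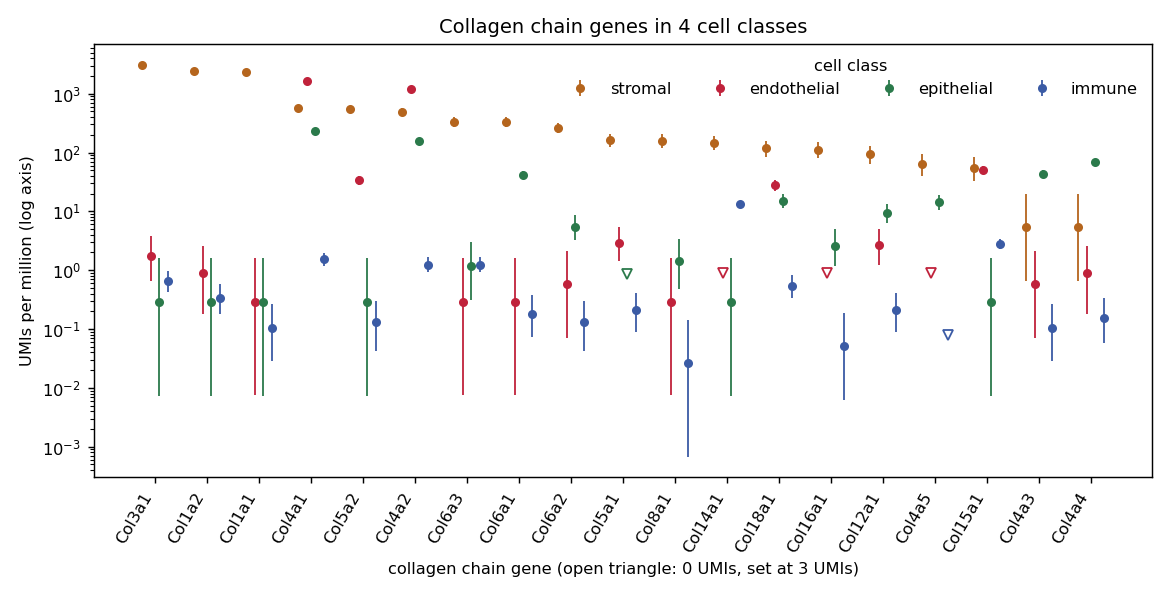
Level of the 19 named members, ordered by stromal level, in CPM on a log axis for the 4 cell classes. Points are pooled levels, bars are 95% Poisson intervals, and open triangles stand for 0 UMIs placed at 3 UMIs. Col3a1, Col1a2 and Col1a1 stood at 2303 to 3052 CPM in stromal cells and under 2 CPM elsewhere, while Col4a1 and Col4a2 were highest in endothelial and Col4a3 and Col4a4 in epithelial cells.

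The chains of types I and III were found almost only in stromal cells. Col3a1, the chain of type III collagen, was at 3052 CPM (2876 to 3236) in stromal, 1.76 in endothelial, 0.290 in epithelial and 0.650 in immune cells. Col1a2 was at 2447 CPM (2290 to 2613) and Col1a1, its partner in type I collagen, at 2303 CPM (2151 to 2464) in stromal cells, with 0.104 to 0.882 CPM for both genes in the other classes. These 3 genes together were at 2.94 CPM (1.41 to 5.40) in endothelial and 0.869 CPM (0.179 to 2.54) in epithelial cells. T, NK and B lymphocytes, taken as cells that lack these collagens, were at 1.16 CPM (0.618 to 1.99). The endothelial and epithelial intervals overlapped that interval. Whether free RNA, doublets or expression gave these counts was not tested. After each cell was thinned to 1000 UMIs, Col1a1 was detected in 76.2% of 101 stromal cells (66.7 to 84.1, exact binomial interval) and in 0 of 1533 endothelial cells, where a limit of 3 cells allows a share with a UMI of up to 0.196% (unthinned, 89.8% and 0.0585%). The same thinning gave 0 of 3786 T or NK cells (median depth 1669 UMIs before thinning), where the same limit is 0.0792%. These limits are on cells with a UMI, not on cells that express the gene.

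Type V chains, which help set fibre diameter, went with types I and III but not in full. Col5a1 was at 161 CPM (122 to 207) in stromal and 2.94 CPM (1.41 to 5.40) in endothelial cells. Col5a2 was at 544 CPM (472 to 625) in stromal cells and at 33.8 CPM (27.9 to 40.6) in endothelial cells, where lymphocytes had 0.0894 CPM (0.00226 to 0.498). The endothelial Col5a2 level was thus above the lymphocyte level, unlike that of Col1a1 (0.294 CPM, 1 UMI).

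The ubiquitous type IV chains, Col4a1 and Col4a2, were the most abundant members outside the stroma. Col4a1 was at 1654 CPM (1611 to 1697) in endothelial, 566 (492 to 649) in stromal, 234 (218 to 250) in epithelial and 1.53 (1.17 to 1.98) in immune cells. Col4a2 followed in the same order at 1203, 495, 159 and 1.25 CPM. The endothelial level was 2.92-fold (2.54 to 3.37) the stromal level for Col4a1 and 2.43-fold (2.09 to 2.83) for Col4a2, below the 4-fold that defines a peak. Both immune levels lay within the lymphocyte intervals of 0.885 to 2.43 CPM for Col4a1 and 0.817 to 2.32 CPM for Col4a2. Lymphocytes are part of the immune class, with 17 of its 59 Col4a1 UMIs, so the likeness is built in to some extent. After thinning, Col4a1 was detected in 69.4% of endothelial (67.0 to 71.7), 40.6% of stromal (30.9 to 50.8), 21.3% of epithelial (18.5 to 24.3) and 0.185% of T or NK cells. Unthinned shares were 80.5%, 62.0%, 54.5% and 0.293%.

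Of the alveolar type IV chains, Col4a3 and Col4a4 had their highest levels in the epithelium and Col4a5 in the stroma. Col4a4 was at 68.7 CPM (60.2 to 78.0) in epithelial cells and Col4a3 at 43.8 CPM (37.1 to 51.3), while each had 2 UMIs (5.44 CPM, 0.659 to 19.7) in stromal cells and under 1 CPM in endothelial and immune cells. Col4a5, the chain that joins them in a trimer, was at 14.5 CPM (10.8 to 19.1) in epithelial cells and at 62.6 CPM (39.7 to 94.0) in stromal cells, and had no UMI in endothelial or immune cells. Col4a6, its head-to-head neighbour, had 4 UMIs in the 4 classes. After thinning, Col4a4 was detected in 7.18% of epithelial cells (5.50 to 9.18) and in 0.0528% of T or NK cells, with unthinned shares of 19.5% and 0.0488%.

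Within the endothelium and the epithelium, cells were divided by further marker lists, the assignment being called -like. Cells like ATI cells, the thin gas-exchange cells of the alveolus, carried the alveolar chains at much higher levels than cells like ATII cells, the surfactant producers. In the 221 ATI-like cells Col4a4 was at 229 CPM (193 to 270) and Col4a3 at 177 CPM (145 to 214). In the 516 ATII-like cells they were at 31.0 CPM (24.5 to 38.8) and 14.9 CPM (10.5 to 20.6). The ratio was 7.38 (5.55 to 9.88) for Col4a4, 11.9 (8.11 to 17.7) for Col4a3 and 4.03 (2.22 to 7.32) for Col4a5, and only 1.38 (1.16 to 1.63) for Col4a1 and 1.95 (1.61 to 2.35) for Col4a2. ATI-like cells had the smaller median depth (2484 against 4588 UMIs), and their ATI marker list summed to 7642 CPM against 1506 CPM in ATII-like cells. The list was used to assign the cells, so its sum is no separate check. Any part that neoplastic and normal cells play in this split was not tested.

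Col6a1 ran the other way. It was at 55.2 CPM (46.4 to 65.3) in ATII-like and 6.50 CPM (1.77 to 16.6) in ATI-like cells, an 8.50-fold difference with an ATI over ATII ratio of 0.118 (0.0316 to 0.308). Col23a1, a transmembrane collagen singled out after its values were seen, had 37 UMIs (14.9 CPM) in ATII-like and 0 in ATI-like cells. With 0 set at 3 UMIs for the group, ATI-like cells were 3.06-fold lower, and 11.1-fold lower with clusters. The exact interval of the ATI over ATII ratio reached up to 0.423. The 25 airway-like cells had 14 collagen UMIs in all (97.3 CPM, 53.2 to 163), of which 5 were Col4a1.

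Endothelial subtypes differed in the common type IV chains. Col4a1 was at 1742 CPM (1692 to 1793) in 1316 general capillary-like and 1559 CPM (1383 to 1750) in 95 aerocyte-like cells, the latter being the large capillary cells over which gas exchange takes place; the ratio of 0.895 had an interval that held equality (0.791 to 1.01), which it did not under the majority gate or without upper cut-offs, at log2 ratios of -0.21 in both. In 41 larger vessel-like cells Col4a1 was at 447 CPM (328 to 597) and in 17 lymphatic-like cells at 395 CPM (216 to 663), 3.89-fold and 4.41-fold lower than in general capillary-like cells. Col4a2 was lower by 3.75-fold and 9.03-fold in the same cells, the last from 5 UMIs. Under the strict gate the larger vessel differences were 6.49-fold for Col4a1 and 7.80-fold for Col4a2.

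Col5a2 had the opposite order, at 165 CPM (96.3 to 265) in larger vessel-like and 27.9 CPM (21.9 to 35.0) in general capillary-like cells, a ratio of 5.92 (3.28 to 10.1), and no UMI in aerocyte-like cells. Col15a1, a basement membrane-zone collagen, was at 58.3 and 52.8 CPM in larger vessel-like and general capillary-like cells, with a ratio of 1.10 (0.399 to 2.46), and 3.05-fold lower in larger vessel-like cells once TdTomato-positive cells were removed, with an interval that held equality. Lymphatic-like cells held 9 Col23a1 UMIs in 6 cells (254 CPM, 116 to 483), 38.0-fold (15.0 to 89.0) the general capillary-like level, which was also seen after the fact. All members of the lymphatic marker list were detected in these 17 cells. That list assigned the cells, so this is no separate check of the name.

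**Figure D2:**
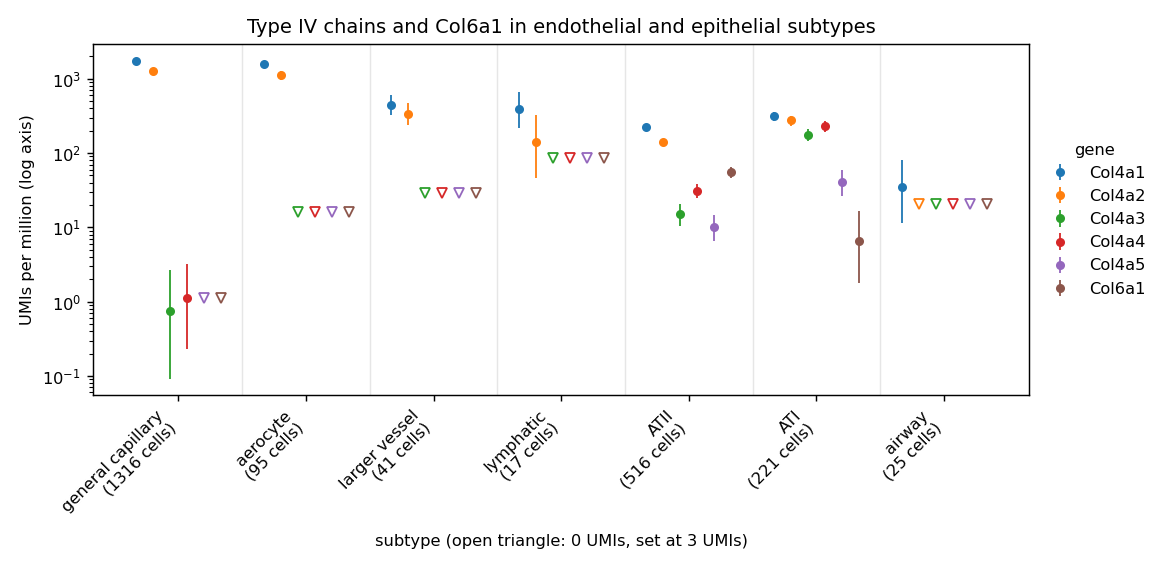
Levels of 5 type IV chains and Col6a1 in endothelial and epithelial subtypes, in CPM on a log axis, with 95% Poisson intervals and open triangles for 0 UMIs placed at 3 UMIs. Col4a1 and Col4a2 were highest in both capillary subtypes, Col4a3 and Col4a4 reached 177 and 229 CPM in ATI-like cells, and Col6a1 reached 55.2 CPM in ATII-like cells.

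Chains that share a trimer were measured at like levels for some pairs and classes and at unlike levels for others. The scale is UMIs of one gene over UMIs of the other. Col1a1 and Col1a2 stood at a ratio of 0.941 (0.856 to 1.03) in stromal cells. In the same cells Col5a1 over Col5a2 was 0.295 (0.217 to 0.396) and Col4a4 over Col4a5 was 0.0870 (0.00994 to 0.352). Stromal Col8a1 over Col8a2 was 58.0 (10.0 to 2330), with 1 UMI of Col8a2. In endothelial cells Col5a1 over Col5a2 was 0.0870 (0.0406 to 0.166). Col4a1 over Col4a2 was 1.14 (0.932 to 1.40) in stromal, 1.37 (1.32 to 1.43) in endothelial and 1.47 (1.32 to 1.64) in epithelial cells, while Col4a1 itself ranged from 234 to 1654 CPM. Of the endothelial cells with a Col4a1 UMI, 83.1% also had Col4a2, against 42.8% of those without, whose median depth was lower (1426 against 1924 UMIs). Col4a3 over Col4a4 was 0.637 (0.516 to 0.785) in epithelial cells.

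Type VI collagen needs Col6a1, Col6a2 and one chain of a further set that includes Col6a3. In stromal cells these were close, with Col6a1 over Col6a2 at 1.27 (0.965 to 1.68) and Col6a1 over Col6a3 at 1.00 (0.772 to 1.30), from 332, 261 and 332 CPM of Col6a1, Col6a2 and Col6a3. The interval of the former left equality under the majority gate, with clusters and without upper cut-offs, at log2 ratios of 0.47, 0.44 and 0.40. In epithelial cells Col6a1 was at 41.4 CPM (34.9 to 48.8), Col6a2 at 5.51 CPM (3.32 to 8.60) and Col6a3 at 1.16 CPM (0.316 to 2.97), which gave ratios of 7.53 (4.65 to 12.9) and 35.8 (13.7 to 133), the latter being 20.5 without upper cut-offs. The epithelial intervals did not overlap the stromal ones. Of 105 epithelial cells with Col6a1, 6 also had Col6a2 and 1 had Col6a3. The alternatives to Col6a3, namely Col6a4, Col6a5 and Col6a6, had no UMI in epithelial cells. For each, 0 UMIs allow up to 1.07 CPM, close to the Col6a3 level, so these counts cannot show that they were lower than Col6a3.

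**Figure D3:**
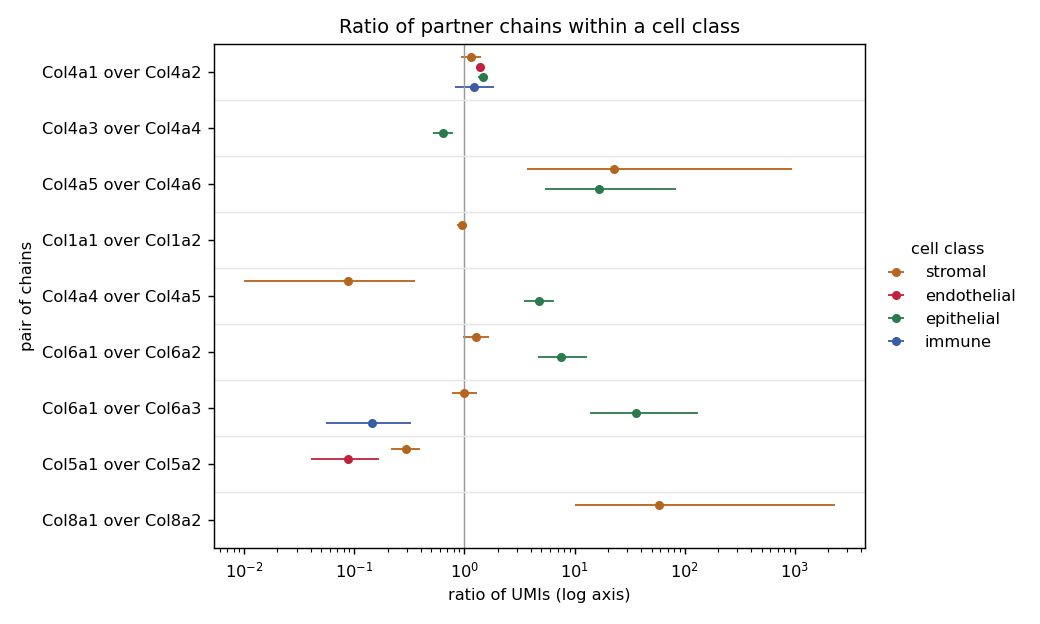
Ratio of the UMIs of partner chains within a cell class on a log axis, with exact conditional 95% intervals; the grey line marks equality. Col4a1 over Col4a2 lay between 1.14 and 1.47 in stromal, endothelial and epithelial cells, whereas Col6a1 over Col6a2 was 1.27 in stromal and 7.53 in epithelial cells.

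The remaining stromal members were lower. Col8a1, a short-chain collagen of vessel walls, was at 158 CPM (120 to 204), Col14a1 at 147 CPM (110 to 192), Col18a1, the source of endostatin, at 117 CPM (84.7 to 158), Col16a1 at 112 CPM (80.1 to 151) and Col12a1 at 92.6 CPM (64.1 to 129). Col15a1 did not separate stromal from endothelial cells, at 54.4 CPM (33.3 to 84.1) and 50.8 CPM (43.5 to 59.0). In the other classes these 5 members lay between 0 and 27.9 CPM, the highest being endothelial Col18a1, and Col14a1 was at 13.1 CPM in immune cells. The transmembrane Col13a1, which was under the level for naming, had 37 endothelial UMIs (10.9 CPM) and 11 stromal UMIs (29.9 CPM).

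The 108 stromal cells were divided into 22 alveolar fibroblast-like, 27 adventitial fibroblast-like, 10 pericyte-like and 15 smooth muscle-like cells, and none was mesothelial-like. A further 34 were left unassigned, with under 2 genes of the leading list or a tie between lists. Col3a1 was at 3381 CPM in alveolar fibroblast-like cells, where 86 of 239 UMIs came from 1 cell, and at 3466 CPM in adventitial fibroblast-like cells, with a ratio of 1.03 (0.868 to 1.21). That near equality depended on the cells taken, since the log2 ratio was 0.66 (0.29 to 1.05) under the strict gate and 0.29 (0.066 to 0.51) with clusters. Col1a1 was higher in adventitial fibroblast-like cells, at 2362 CPM (2075 to 2678) against 1486 CPM (1215 to 1798), and so was Col1a2, by 1.62-fold (1.31 to 2.01). Col6a3 was 6.01-fold lower there, at 87.1 CPM (39.8 to 165) against 523 CPM (369 to 722), while the intervals of its partners Col6a1 (0.618, 0.357 to 1.07) and Col6a2 (0.714, 0.386 to 1.32) held equality. The Col6a3 difference was 3.42-fold with clusters, 3.43-fold without upper cut-offs and 2.64-fold under the strict gate, where its log2 interval of -3.00 to 0.10 held equality.

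Col8a1 was at 349 CPM (244 to 483) in adventitial fibroblast-like cells, from 36 UMIs in 8 cells with 16 of them in 1 cell. It had no UMI in alveolar fibroblast-like cells. With 0 set at 3 UMIs for the group, these were 8.21-fold lower (5.37-fold under the strict gate and without TdTomato-positive cells). The exact interval began at 6.34-fold. Col13a1, a transmembrane collagen noted after its values were seen, had 9 of its 11 stromal UMIs in alveolar fibroblast-like cells (127 CPM, 58.2 to 242). Pericyte-like cells had the highest summed level, 14934 CPM (13558 to 16411), with Col4a1 at 1279 CPM (901 to 1763), which was 2.10-fold (1.32 to 3.34) the alveolar fibroblast-like level, though under the strict gate the log2 interval of -0.14 to 1.86 held equality. Their Col1a1 level of 4010 CPM rested on 116 UMIs of which 56 came from 1 cell. All 8 pericyte markers were detected in these 10 cells, but the list assigned the cells, so this is no separate check. Pdgfrb was in 10, Higd1b in 4 and Cox4i2 in 5 of them, while Postn, which fibroblasts also express, was in 9. The adventitial fibroblast list summed to 1486 CPM in these cells, against 6119 CPM for the pericyte list. Whether fibroblasts were among them was not tested, so their levels are those of the assigned cells and not of pericytes as such.

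**Figure D4:**
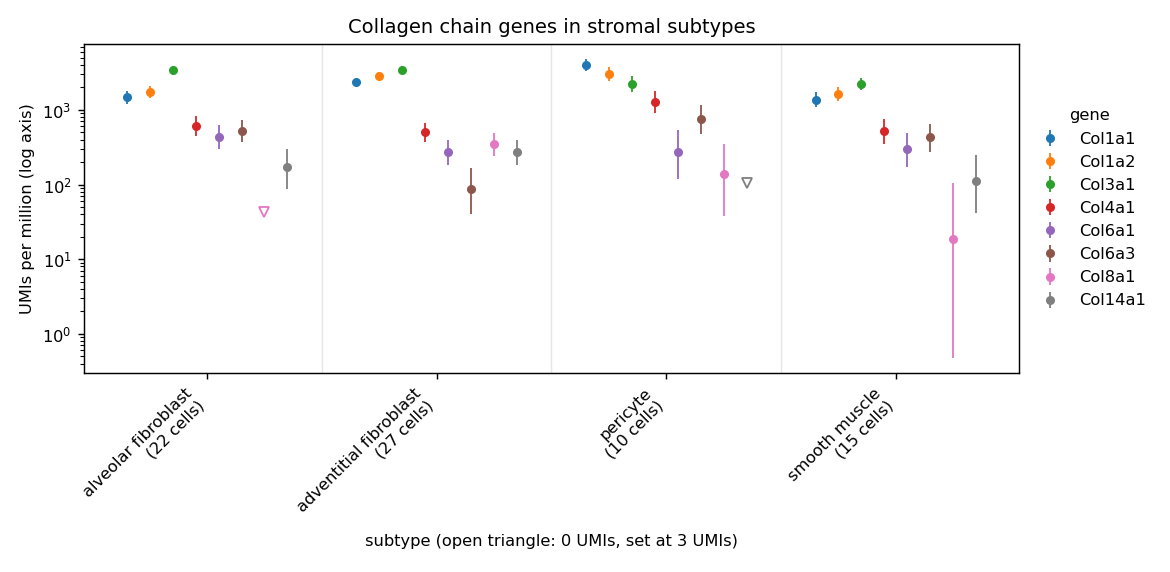
Levels of 8 members in 4 stromal subtypes, in CPM on a log axis, with 95% Poisson intervals and open triangles for 0 UMIs placed at 3 UMIs. Col3a1 lay between 2223 and 3466 CPM in all 4, Col6a3 was lowest at 87.1 CPM and Col8a1 highest at 349 CPM in adventitial fibroblast-like cells.

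Immune cells had little collagen, with 1 exception. Col14a1, a fibril-associated chain, had 504 UMIs in immune cells (13.1 CPM, 12.0 to 14.3) against 8 UMIs in lymphocytes (0.715 CPM, 0.309 to 1.41). Of these, 456 were in the 2191 cells of the list of other myeloid genes, at 51.7 CPM, in 312 cells, 13.8-fold (9.33 to 21.1) the level of alveolar macrophage-like cells (27 UMIs, 3.75 CPM). All 456 UMIs were in cells with C1qa, a complement gene of tissue macrophages, at 63.3 CPM (57.6 to 69.4) in 1711 cells, and none was in the 480 cells without it, where 0 UMIs allow up to 2.28 CPM. Cells with Ms4a7, another macrophage gene, were at 109 CPM (98.9 to 120) and those without it at 10.3 CPM (7.72 to 13.5), at median depths of 3768 and 3941 UMIs. None of the 87 cells with Flt3, a dendritic cell gene, or the 63 with Cd300e, a monocyte gene, had a Col14a1 UMI, which allows up to 9.88 CPM and 24.1 CPM, the Cd300e cells being shallower (median 1723 UMIs). Cells with F13a1, also a monocyte gene, were at 49.7 CPM (37.8 to 64.3) and those without it at 51.9 CPM (47.0 to 57.3). Col3a1 was at 1.13 CPM (0.543 to 2.08) in the other myeloid cells, an interval that overlapped that of T or NK cells (0.205 to 1.47).

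Further members were low in immune cells but uneven among them; they were picked out after their values were seen. Col6a3 had 28 UMIs in alveolar macrophage-like cells (3.89 CPM) and 2 in the other myeloid cells (0.227 CPM), a ratio of 0.0582 (0.00672 to 0.231), or a 17.2-fold difference that was 8.87-fold under the strict gate. Col27a1, a fibrillar chain, had 47 UMIs in the other myeloid cells (5.32 CPM) and none in alveolar macrophage-like cells. With 0 set at 3 UMIs for the group, the latter were 12.8-fold lower, and the exact interval began at 9.98-fold. Without TdTomato-positive cells the alveolar macrophage-like cells were again at 0, and the fewer cells left gave no bound above equality. Col15a1 was at 4.76 CPM in the other myeloid cells and 4.87 CPM in alveolar macrophage-like cells, with a ratio of 0.978 (0.609 to 1.58), and at 0.447 CPM (0.145 to 1.04) in lymphocytes. B or plasma-like cells held 12 of the 26 Col6a4 UMIs of immune cells (3.68 CPM), and Col6a4 had no UMI in any other class. There, 0 UMIs allow up to 1.08 CPM in endothelial, 1.07 CPM in epithelial and 10.0 CPM in stromal cells. The immune class held far more UMIs in all (38467615), so these zeros do not show that Col6a4 was restricted to it. Col11a2, Col20a1 and Col17a1 had 44, 39 and 18 UMIs in immune cells, at 1.14, 1.01 and 0.468 CPM.

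**Figure D5:**
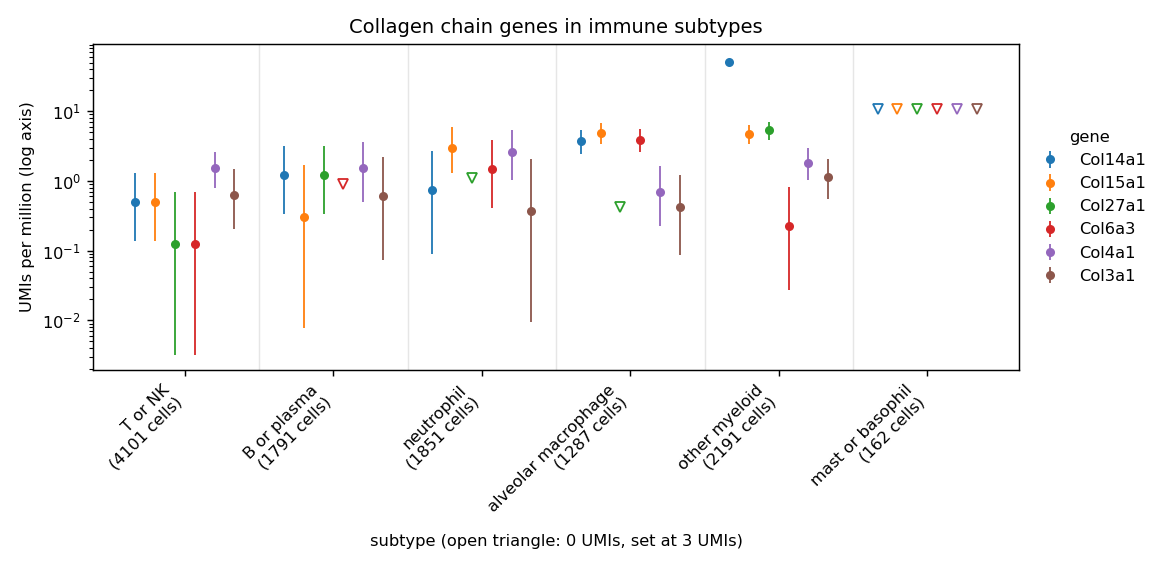
Levels of 6 members in immune subtypes, in CPM on a log axis, with 95% Poisson intervals and open triangles for 0 UMIs placed at 3 UMIs. Col14a1 stood at 51.7 CPM in the other myeloid cells and at 0.505 to 3.75 CPM in the T or NK, B or plasma, neutrophil and alveolar macrophage subtypes; the mast or basophil cells had 0 UMIs of all 6 members, and their triangles mark 3 UMIs, or 10.9 CPM.

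Cells that met more than one list also held collagen. The 191 endothelial and immune cells held Col4a1 at 1000 CPM, while the 961 epithelial and immune cells held it at 12.8 CPM, against 234 CPM in epithelial and 1.53 CPM in immune cells. The 20 stromal and endothelial cells held Col1a1 at 719 CPM and Col4a1 at 849 CPM. None of these cells entered the 4 classes.

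Genes that make, cross-link and bind collagen were examined next. Of 75 such genes outside the gate, 67 had 10 UMIs in a class. Of these, 22 peaked in stromal, 1 in endothelial, 2 in epithelial and 1 in immune cells, and 41 had no peak. The shares of all features were 2.79%, 1.98%, 1.81% and 2.64% in the same order. The counts outside the stroma were therefore not read as a result about these genes. All 4 cross-linking genes tested peaked in stromal cells, among them Loxl1, a lysyl oxidase, at 395 CPM against 0 to 0.588 CPM in the other classes. So did 6 of 7 fibril partners, including Bgn (3479 CPM) and Fn1 (1595 CPM), which bind fibres, Dpt (324 CPM) and Postn (212 CPM). Pcolce, which enhances removal of the procollagen C-propeptide, was at 332 CPM in stromal and 24.3 CPM in epithelial cells. Of 15 chain-modifying enzymes 2 peaked in stromal cells, P4ha3 and P3h3, and 13 had no peak. The laminin chain Lamb3, a partner of the epithelial basement membrane, was at 114 CPM in epithelial cells, at 17.8 CPM in immune cells and without a UMI in stromal cells. Among receptors, Ddr2 peaked in stromal cells at 177 CPM. Itga2, a subunit of a collagen-binding integrin, was at 54.7 CPM in endothelial cells and at 4.16 to 9.56 CPM in the other classes. Lair1, an inhibitory collagen receptor of leukocytes, was at 51.0 CPM in immune cells with no UMI in the other classes. Itga2 and Lair1 are the only endothelial and immune peaks counted above, so their values are given as levels only. P4ha3, P3h3, Lamb3, Ddr2, Itga2 and Lair1 were under the level for naming and were picked after their values were seen.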

How the data were processed

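Per the labels and the study's methods, the authors mapped reads with Cell Ranger 3.0.2 to an mm10 reference that also held GFP and TdTomato, and the deposited values are raw counts of UMIs, one matrix for all cells. It held 20351 cells, 31055 features and 58624795 UMIs. Cells with at least 200 genes and at or under the 98th percentile of genes (2713) and mitochondrial share (13.4%) were kept, which left 19488 cells, 53225043 UMIs and 19963 of 24641 collagen UMIs. The members, marker lists and pathway lists were chosen with earlier results of these data known.

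Raw counts were summed per class with Python 3.11.15, NumPy 2.4.6 and SciPy 1.17.1 and divided by the class total. Intervals are exact Poisson (sums), Clopper-Pearson (shares) or conditional binomial (ratios) at 95%, for counting error only. No test was run, as the 4 mice are 1 pooled sample. In the peak rule a class under 3 UMIs was set at 3 UMIs (8.17 CPM in stromal cells), so that a gene absent from stromal cells peaked elsewhere only above 4 times that level. Within a class, cells went to the marker list with the largest share of genes detected, at least 2 genes, ties unassigned. Named members had at least 50 CPM and 10 UMIs in a class or a subtype of at least 10 cells, which gave 19. Named pathway genes had at least 200 CPM and a peak; those named below that were picked after their values were seen. Putative doublets stayed in the reported values, apart from cells that met more than one list; Scrublet in scanpy 1.11.5 called 141 of the cells kept (0.724%). The alternatives used clusters from Seurat 5.3.0 (R 4.3.3), other gates, filters and thresholds. The peak rule and intervals were tested on simulated data. Coordinates are from GENCODE for mm10, where no exon of another gene on the same strand overlapped a member. One pathway gene that was counted is not reported by name here.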

Additional observations from a re-analysis of the deposited data

How the results depend on the processing

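No paired analysis was possible because the deposited columns carry no map from cells to mice; for the same reason no replicate could be left out. Of the values recomputed over 15 alternatives, 110 of 133 that answer a comparison and 357 of 414 others (levels of classes and named genes, subtype ratios, pair ratios and shares) stayed within the interval, or for counts within 1.5 times, of the reported value. Levels in double-gated cells, Col14a1 by myeloid marker and pathway peaks outside the stroma were not recomputed. One value reversed, the log2 ratio of Col27a1 in other myeloid over alveolar macrophage-like cells, from 3.67 to -0.69 without TdTomato-positive cells, by construction of the 3-UMI floor in the fewer cells left. Stromal peaks numbered 12 to 17 and changed members: Col4a5 was lost under the strict gate, without upper cut-offs, without TdTomato-positive cells, as a mean over cells and at 8-fold, Col18a1 with clusters and at 8-fold, and Col5a3, Col13a1, Col27a1 and Col7a1 were gained under looser rules or clusters. A 2-fold rule gave 2 endothelial peaks, Col4a1 and Col4a2. The epithelial peaks went from 2 to 1, by loss of Col4a3, under the strict gate, the 8-fold rule and removal of TdTomato-positive cells outside the epithelium. The stromal over endothelial log2 ratio was 2.01 under the strict gate, 1.83 with clusters and 2.08 without TdTomato-positive cells; endothelial over epithelial was 2.20 under the strict gate and 2.13 as a mean over cells; epithelial over immune was 3.95 under the majority gate, 4.29 with clusters, 4.29 without TdTomato-positive cells and 4.72 as a mean over cells. The larger vessel over general capillary log2 ratio of Col4a1, -1.96, was -2.70 under the strict gate. The cause of the other shifts was not tested.

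Thinning to 500, 2000 and no UMIs set the shares of cells by construction: 52.8%, 89.7% and 89.8% for Col1a1 in stromal cells, 47.7%, 86.9% and 80.5% for Col4a1 in endothelial cells, and 3.37%, 11.8% and 19.5% for Col4a4 in epithelial cells. Stromal values rest on 108 cells and 367325 UMIs, where 1 UMI is 2.72 CPM. The 3-UMI floor is 8.17 CPM there, and by the exact Poisson interval 0 UMIs allow up to 10.0 CPM.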
